A study of Mus musculus with 4 samples.

Results

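The AP-1 transcription factor subunits were followed through 1 library of respiratory basal cells (RBC) and 3 libraries of cultured olfactory horizontal basal cells (HBC) of the mouse. The set holds 10 genes, taken by exact symbol from the 23281 genes listed: Fos, Fosb, Fosl1 and Fosl2 of the FOS family, Jun, Junb and Jund of the JUN family, and Atf3, Batf and Batf3. All 10 were listed, and all 10 passed the filter on low values. The RBC sample was microdissected, and its TdTomato-positive cells were sorted from mice of the strain KRT5-CreER;Ai9-fl(stop)TdTomato. In that strain the keratin 5 promoter drives an inducible Cre recombinase, which switches on the red reporter in keratin 5 cells and in their descendants. The HBC samples were wild-type cells at passage 3 under control conditions, with no sort stated. No label states ages, the number of animals or whether the HBC libraries came from separate cultures, so p-values measure only the spread between these libraries, which may be technical. Tissue of origin, genotype, culture and sorting all differed between the groups, so they cannot be told apart.

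AP-1 is not 1 protein but a family of dimers. A JUN protein pairs with another JUN, with a FOS protein or with a related factor through a leucine zipper, and the pair binds DNA at the TPA response element, or at a cyclic AMP response element for pairs with ATF members. FOS proteins cannot pair with themselves, so the mixture of subunits present sets which dimers can form. Fos, Fosb, Jun, Junb and Atf3 are immediate early genes, transcribed within minutes of serum, growth factors, wounding or other stress and silent again soon after. Fosl1 and Fosl2 encode FRA-1 and FRA-2, which lack the strong activation domain of FOS and appear later and last longer. In squamous and airway epithelium AP-1 acts in wound repair, migration and the switch to squamous differentiation.

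Values below are depth-scaled FPKM (fragments per kilobase of transcript, divided by 1 factor for each library). They are per length, so that levels may be compared between genes. RBC has 1 library and so no spread of its own, and HBC means are given with their SD (n = 3). The deposited values summed to 9877606 in the RBC library and to between 8377232 and 10855996 in the HBC libraries, and depth in reads is unknown. Genes were called higher or lower in RBC when limma's adjusted p was under 0.05 and the ratio of the groups at least 2-fold on the log2(value + 1) scale. Among all 16440 genes tested, 34.2% were called higher in RBC and 12.8% lower. The keratin, Trp63 and adhesion genes that mark basal cells were present in both groups: the 12 listed markers summed to 98683 in RBC and to between 49631 and 52404 in HBC libraries, with 9 called higher in RBC and 1 lower (median log2 change 1.73). For leukocytes, fibroblasts and endothelium together, 33 of 41 markers tested were called higher in RBC and 3 lower. Summed leukocyte markers reached 16353 in RBC, of which Lyz2 made up 14770, and 668 to 785 in HBC libraries, where Tyrobp, Fcer1g, Csf1r and Ccr7 were among those listed at 0. Fibroblast markers (11 of 12 higher) summed to 7972 in RBC, of which Dcn made up 6902, and to between 155 and 169 in HBC. Endothelial markers (10 of 12 higher, 1 lower) summed to 169 in RBC and to between 94.4 and 146 in HBC. Most of the HBC sums came from Fbln1 for fibroblasts (101 ± 4.1) and from Egfl7 for endothelium (109 ± 27, SD, n = 3 each). Egfl7, the endothelial marker called lower, was at 19.3 in RBC. All 11 tested markers of olfactory and ciliated cells were higher in RBC, with sums of 18578 in RBC and 246 to 281 in HBC libraries. Their part in the results on AP-1 genes was not tested. In bulk samples, fewer cells of a type and less RNA per cell cannot be told apart.

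Within the FOS family, Fos and Fosb were far higher in RBC, Fosl1 was lower and Fosl2 did not pass the test. Fos stood at 26583 in the RBC library, against 213, 226 and 222 in HBC libraries 1, 2 and 3. It was the 28th most abundant of all listed genes in RBC and ranked between 5979 and 6194 in the HBC libraries. The RBC value was 121-fold higher (log2 change 6.91 ± 0.05 SE, limma adjusted p = 2.96e-05). Fosb, the nearest relative of Fos, was at 4009 in RBC, against 32.2, 31.1 and 34.0 in HBC libraries, a 124-fold difference (log2 change 6.91 ± 0.07 SE, limma adjusted p = 9.64e-05). Every HBC value of both genes lay far below the RBC value, and the HBC libraries differed from one another by little (coefficients of variation of 3.05% and 4.55%). The ratio of Fos to Fosb was 6.63 in RBC and 6.81 ± 0.41 in HBC (SD, n = 3), so both genes differed between the groups in nearly the same proportion.

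Fosl1 moved the other way. It was at 21.3 in RBC, against 401, 446 and 389 in HBC libraries, which made it 19.3-fold lower in RBC (log2 change -4.21 ± 0.10 SE, limma adjusted p = 0.00063). FRA-1, its product, is known from migrating and invading epithelial cells and is stabilised by ERK signalling. Fosl1 shares 1163 of the 1864 exonic bases of its first annotated transcript with Ccdc85b on the opposite strand, and whether the counting used strand is not stated. Ccdc85b itself was at 111 in RBC and at 118 ± 8.0 in HBC (SD, n = 3). Fosl2 did not pass the test, with 461 in RBC and 462, 458 and 434 in HBC libraries. The RBC value lay inside the range of the HBC libraries (log2 change 0.03 ± 0.05 SE, limma adjusted p = 0.605), and the log2 change was -0.47 when library medians were set equal.

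**Figure D1:**
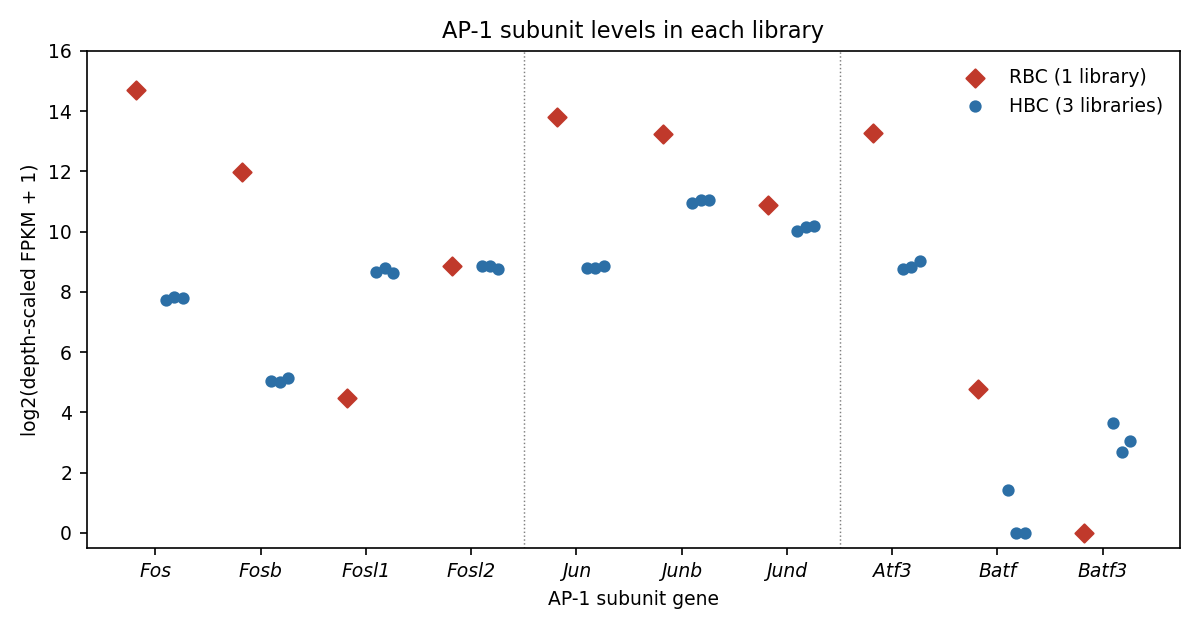
Level of each AP-1 subunit on the log2(depth-scaled FPKM + 1) scale, with the RBC library as a red diamond and the 3 HBC libraries as blue points. Fos, Fosb, Jun, Junb and Atf3 stand above all 3 HBC libraries in RBC, Fosl1 stands below them, and Fosl2 at 461 in RBC lies among them.

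The dominant FOS member therefore differed between the groups, and this comparison within each library does not depend on the 1 factor by which each library was divided. Shares under quantile normalization, which also alters ratios within a library, were not computed. Fos made up 85.5% of the summed FOS family in RBC, against 19.2%, 19.5% and 20.5% in HBC libraries. Fosb added 12.9% in RBC and 2.91% ± 0.24 in HBC (SD, n = 3). Fosl1 and Fosl2 together carried most of the family in the cultures: Fosl2 held 40.4% ± 1.1 and Fosl1 36.9% ± 1.3 of the HBC sum (SD, n = 3), against 1.48% for Fosl2 and 0.0686% for Fosl1 in RBC. The ratio of Fos to Fosl1 was 1247 in RBC and 0.536 ± 0.032 in HBC (SD, n = 3). On the log2 scale that ratio was 10.28 in RBC and lay between -0.98 and -0.81 in the HBC libraries. With 1 library against 3 an exact permutation test has 4 arrangements and cannot give a p under 0.25, so no test of the shares is given. The summed family was at 31074 in RBC and 1117 ± 42 in HBC (SD, n = 3), a 27.8-fold difference.

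**Figure D2:**
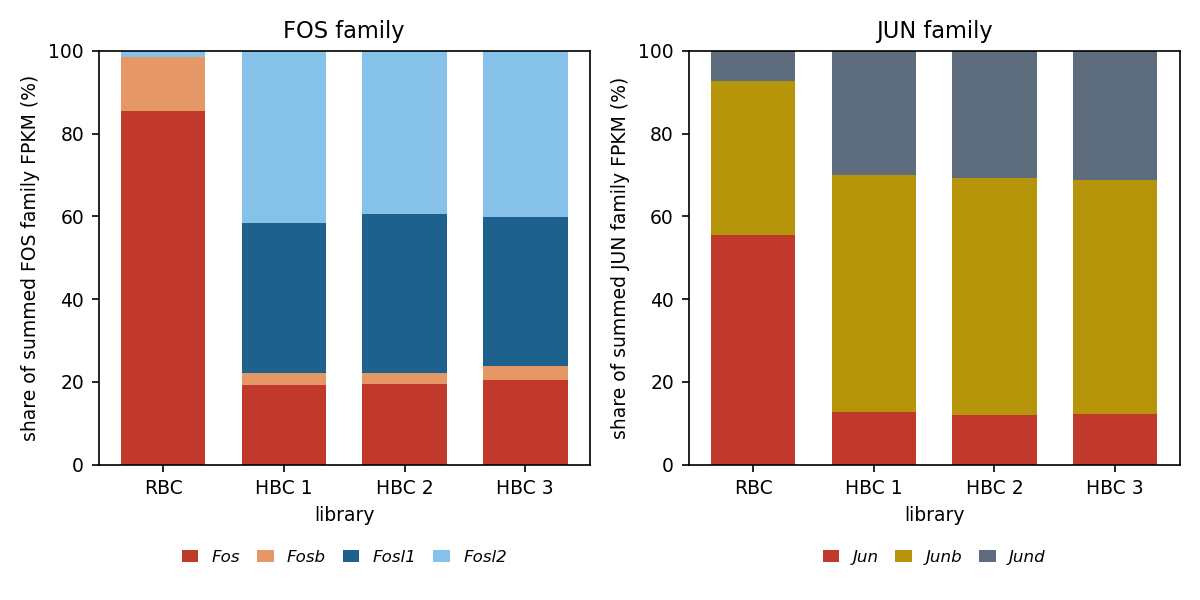
Share of each gene in the summed FPKM of its family (percent), in the RBC library at the left and in HBC libraries 1 to 3. Fos fills 85.5% of the FOS bar in RBC while Fosl1 and Fosl2 fill most of it in each HBC library, and Jun fills 55.4% of the JUN bar in RBC while Junb leads in each HBC library.

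The JUN family differed by less, and its members differed unequally. Jun, the most strongly activating JUN protein whose promoter is a known target of AP-1 itself, was at 14396 in RBC, against 437, 443 and 460 in HBC libraries. This was 32.2-fold higher in RBC (log2 change 5.01 ± 0.04 SE, limma adjusted p = 4.61e-05), with a coefficient of variation of 2.63% among HBC libraries. Junb, which can oppose Jun at growth-promoting targets, was at 9710 in RBC, against 1986, 2130 and 2101 in HBC libraries, a 4.69-fold difference (log2 change 2.23 ± 0.06 SE, limma adjusted p = 0.000619). Jund, the JUN gene with the steadiest expression across cell states, was at 1891 in RBC, against 1038, 1146 and 1168 in HBC libraries. The RBC library was above each HBC library, but at 1.69-fold the difference stayed under the 2-fold minimum (log2 change 0.76 ± 0.09 SE, limma adjusted p = 0.0104). Jund passed that minimum under quantile normalization (log2 change 1.08, limma adjusted p = 0.00168), and over all alternatives its adjusted p ran between 0.00168 and 0.0923. Jun shares 232 of 3189 exonic bases with Junos and Jund 877 of 1668 with Gm11175, both antisense genes, so reads of each pair could not be told apart without strand.

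Within the JUN family the leading gene was Jun in RBC and Junb in the cultures. Jun made up 55.4% of the family sum in RBC and 12.3% ± 0.4 in HBC (SD, n = 3). Junb made up 37.3% in RBC and 57.0% ± 0.6 in HBC, and Jund 7.28% in RBC and 30.7% ± 0.7 in HBC (SD, n = 3 each). The ratio of Junb to Jun was 0.674 in RBC and lay between 4.54 and 4.81 in the HBC libraries. The ratio of Jun to Jund was 7.61 in RBC and lay between 0.387 and 0.421 in the HBC libraries. The summed JUN family was at 25997 in RBC and 3636 ± 152 in HBC (SD, n = 3), a 7.15-fold difference, so the FOS sum exceeded the JUN sum in RBC (ratio 1.19) and was under a much larger JUN sum in HBC (ratio 0.307 ± 0.016, SD, n = 3).

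Atf3, a stress-induced factor that pairs with JUN proteins and often represses its targets, followed Jun. It was at 9793 in RBC, against 431, 452 and 519 in HBC libraries, and no HBC library came near the RBC value. The difference was 21.0-fold (log2 change 4.39 ± 0.14 SE, limma adjusted p = 0.000974). Batf and Batf3 encode short AP-1 proteins that work with interferon regulatory factors in lymphocytes and dendritic cells, and both were low throughout. Batf was at 26.5 in RBC, against 1.65, 0 and 0 in HBC libraries. Batf3 was listed at 0 in RBC, against 11.4, 5.45 and 7.31 in HBC libraries. The value of Batf in HBC library 1 was of the order of a single read: the deposited value times transcript length in kilobases was 1.33, against a median of 1.23 for the smallest values of 787 low genes with 1 annotated transcript. No fold is given for either gene. Batf was called higher (limma adjusted p = 0.026), but lost the call when HBC library 2 (limma adjusted p = 0.0932) or HBC library 3 (0.0913) was left out, with a pseudocount of 0.1 (0.0989) and under quantile normalization (0.0877), within a range of 0.000313 to 0.0989 over the alternatives. Batf3 was called lower (limma adjusted p = 0.0167), but not without HBC library 3 (limma adjusted p = 0.0758) or with a pseudocount of 10 (0.0539), within a range of 0.00345 to 0.0758. Of 17 leukocyte markers tested, 12 were also called higher in RBC, against 34.2% of all genes tested. Among them was Tyrobp, an adaptor of myeloid receptors, at 64.1 in RBC and 0 in all HBC libraries. The 2 called lower were Cd68, a lysosomal protein of macrophages and other cells (65.7 in RBC and 515 ± 43 in HBC), and Cd53, a tetraspanin of leukocytes (6.76 in RBC and 40.1 ± 0.3 in HBC, SD, n = 3 each). The part of such cells in the Batf value was not tested.

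Counted over the family, 6 of 10 subunits were called higher in RBC and 2 lower, against 34.2% higher and 12.8% lower among all genes tested. Batf and Batf3 passed the filter on low values only through the group in which they were high, and the set was chosen with results known, so nothing is read from these counts against the background. The median log2 change was 3.27 over the 10 subunits and 0.45 over all genes tested, and the same limits hold for it. Fos, Fosb, Jun, Junb and Atf3 kept their call as higher, and Fosl1 as lower, in all 12 alternative settings. Only HBC libraries gave a spread, and the lone RBC library was assumed to vary as they do.

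**Figure D3:**
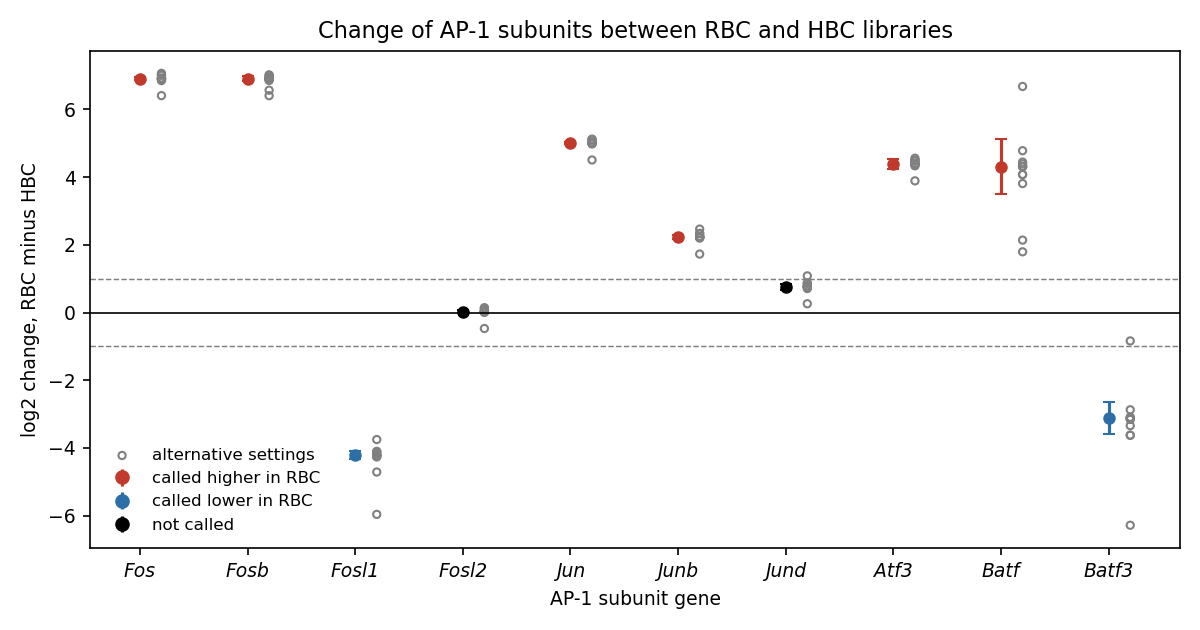
Log2 change of each subunit, RBC minus HBC, as filled points with the standard error from limma, coloured by call, and the same change under the 12 alternative settings as open grey circles (11 for Batf3). Dashed lines mark the 2-fold minimum. The circles of Fos, Fosb, Jun, Junb, Atf3 and Fosl1 stay beyond it, whereas those of Batf and Batf3 spread widely.

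In order of level, the RBC library ran Fos, Jun, Atf3, Junb, Fosb, Jund, Fosl2, Batf, Fosl1 and Batf3. Among all genes of that library Jun ranked 78, Atf3 107, Junb 109 and Fosb 274, while Fosl1 ranked 12700 in RBC and between 3748 and 4173 in HBC libraries. Atf3 at 9793 and Junb at 9710 were nearly level, and with 1 library no spread can be set against the gap. In HBC libraries the order by mean was Junb (2073 ± 76), Jund (1117 ± 69), Atf3 (467 ± 46), Fosl2 (451 ± 15), Jun (447 ± 12), Fosl1 (412 ± 30), Fos (220 ± 6.7) and Fosb (32.4 ± 1.5) (SD, n = 3 each), followed by Batf3 and Batf. The HBC values of Atf3, Fosl2, Jun and Fosl1 overlapped from gene to gene, and their full order is not resolved by these libraries. Compared within each HBC library, Atf3 and Fosl2 were always above Fosl1 (ratio of Fosl2 to Fosl1 1.15, 1.03 and 1.12). The other pairs of these genes changed order between libraries. The gaps from Junb to Jund, from Jund to Atf3, from Fosl1 to Fos and from Fos to Fosb were larger than the spread between HBC libraries. Together the 10 subunits made up 0.718% of all values in RBC and 0.0524% ± 0.0018 in HBC (SD, n = 3).

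The genes that were high together in RBC are shown with the DNA just before their start sites, to show which short AP-1 and cyclic AMP response motifs they hold. Serum response elements were not searched for. RefSeq promoter entries on GRCm38.p6 were found for 9 of the 10 subunits, all but Fosl1. The 250 bases before each start site were searched for the core of the cyclic AMP response element (TGACG) and for the full element (TGACGTCA), which contains that core. They were also searched for the TPA response element (TGACTCA) and for its variant known from Jun (TGACATCA), all on both strands, and for a TATA box (TATAAA) on the gene strand. The last 120 bases before the start site follow, 5′ to 3′ on the gene's strand, with matches in capitals: Fos (chr12:85473770-85473889, plus strand), Fosb (chr7:19310046-19310165, minus), Jun (chr4:95052223-95052342, minus), Junb (chr8:84978749-84978868, minus) and Atf3 (chr1:191183334-191183453, minus), and Fosl2 (chr5:32136352-32136471, plus), which did not pass the test, for comparison.
Fos: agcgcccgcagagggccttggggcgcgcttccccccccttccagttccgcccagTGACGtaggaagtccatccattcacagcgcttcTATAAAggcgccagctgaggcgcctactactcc
Fosb: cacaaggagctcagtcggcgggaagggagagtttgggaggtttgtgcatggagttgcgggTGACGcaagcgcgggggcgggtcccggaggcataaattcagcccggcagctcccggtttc
Jun: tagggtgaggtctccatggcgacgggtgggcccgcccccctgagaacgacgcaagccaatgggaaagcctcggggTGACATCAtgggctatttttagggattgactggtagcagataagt
Junb: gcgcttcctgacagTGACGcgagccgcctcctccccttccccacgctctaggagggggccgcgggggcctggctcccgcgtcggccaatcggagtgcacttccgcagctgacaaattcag
Atf3: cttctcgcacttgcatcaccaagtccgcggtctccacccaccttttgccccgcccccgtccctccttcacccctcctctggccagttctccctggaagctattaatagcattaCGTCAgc
Fosl2: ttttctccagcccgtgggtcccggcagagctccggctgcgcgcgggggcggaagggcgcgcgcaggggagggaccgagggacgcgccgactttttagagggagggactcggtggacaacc
The core TGACG lay at -66 from the start site in Fos, at -60 in Fosb and at -106 in Junb, and on the other strand at -7 in Atf3, where it reads CGTCA. Fos held a second copy at -129, outside the bases shown, and Batf held 1 at -98. The core was thus present in 5 of the 9 entries, and in 17.8% of all 32851 promoter entries. Jun held the variant TGACATCA at -45 (2.93% of all entries) and Fos held the TATA box at -33 (7.59% of all entries). None of the 9 held the full element (1.55%) or the TPA response element TGACTCA (4.46%). The start sites of these entries are not always those of the gene models. For Jund the bases searched ended at chr8:70697738, well before its GENCODE M21 start at 70698949. The lack of a match in Jund therefore says nothing on the bases just before that start. The last 120 bases of the Fosl2, Atf3 and Batf3 entries lay inside the annotated span of the gene. A match is a description of the letters, not evidence that a factor was bound.

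Fos lies at chr12:85473890-85477273 on the plus strand with 4 exons, and Fosl1 at chr19:5447547-5455946, also on the plus strand with 4 exons (GRCm38, GENCODE M21). Jun (chr4:95049034-95052222, minus strand) and Jund (chr8:70698949-70700616, plus strand) are single-exon genes. The submitters' processing notes name build mm9 for the deposited values, so these positions were not carried over to them.

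Other immediate early genes were high in RBC beside Fos and Jun. Of 25 tested immediate early and dissociation-response genes, none of them an AP-1 subunit, 17 were called higher in RBC, 1 lower and 7 were not called (median log2 change 3.22, against 0.45 over all genes tested). Over all genes tested, 34.2% were called higher and 12.8% lower. Klf2, a transcription factor of quiescent cells, was at 306 in RBC and at 1.44, 1.73 and 2.29 in HBC libraries. Socs3, a feedback inhibitor of cytokine receptors, was 109-fold higher (2820 in RBC and 25.9 ± 2.5 in HBC, SD, n = 3, limma adjusted p = 0.000483). Egr2 was at 744 in RBC and at 2.94, 0 and 1.0 in HBC libraries, and was not called without HBC library 3 (limma adjusted p = 0.0559) or with a pseudocount of 0.1 (0.0505). Egr1, a zinc finger factor picked with its values known, was at 11682 in RBC and 188 ± 3.7 in HBC (SD, n = 3). The one gene called lower was Myc (545 in RBC and 1346 ± 25 in HBC, SD, n = 3, limma adjusted p = 0.000496). Mcl1 was at 1455 in RBC and 2433 ± 9.2 in HBC, and Ier3 at 2370 in RBC and 2659 ± 133 in HBC (SD, n = 3 each), and neither was called. Mcl1 passed as lower when library medians were set equal (log2 change -1.24), and the change of Ier3 turned to 0.19 under quantile normalization.

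Genes often listed as targets of AP-1 were more often called lower than higher in RBC. Of 26 tested, 13 were called lower in RBC, 4 higher and 9 were not called, with a median log2 change of -1.69. Shares over all genes tested were 12.8% lower and 34.2% higher. The largest falls were those of Ivl, an envelope protein of squamous cells (8.07 in RBC, and 2645, 2508 and 2341 in HBC libraries), the cytokine Il1a (16.6 in RBC and 1650 ± 101 in HBC) and the chromatin protein Hmga1 (147 in RBC and 7396 ± 407 in HBC, SD, n = 3 each). Further members of this list, of the plasminogen and EGF receptor systems and named after their values were seen, fell as well. The protease gene Plau was at 48.4 in RBC and 1646 ± 81 in HBC, its receptor gene Plaur at 113 and 1401 ± 53, and the growth factor gene Areg at 37.2 and 1214 ± 23 (SD, n = 3 each). Ccnd1, the cyclin that links growth signals to division and likewise named after its values were seen, was 9.24-fold lower (1262 in RBC and 11665 ± 225 in HBC, SD, n = 3, limma adjusted p = 0.000104). In the other direction, Dcn, a collagen-binding proteoglycan, was at 6902 in RBC and at 57.5, 38.6 and 35.8 in HBC libraries, and it is also on the fibroblast list, of which 11 of 12 members rose. Il6 (176 in RBC, and 15.7, 6.30 and 6.28 in HBC libraries) was not called without HBC library 2 (limma adjusted p = 0.0789) or 3 (0.077).

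Of 27 tested kinases, phosphatases and upstream factors of AP-1, 9 were called higher in RBC, 2 lower and 16 were not called (median log2 change 0.19). The share called higher was close to that over all genes tested (34.2% higher and 12.8% lower). Dusp1, an immediate early phosphatase that switches MAP kinases off, was 6.98-fold higher (6465 in RBC, and 929, 922 and 927 in HBC libraries, limma adjusted p = 8.48e-06). Its relative Dusp2 was at 97.5 in RBC and at 1.64, 1.31 and 2.61 in HBC libraries, and the neuronal JNK gene Mapk10 at 19.7 in RBC and at 0.332, 0.267 and 0.394. Elk3, an ETS partner of serum response factor, was 4.67-fold lower (110 in RBC and 516 ± 11 in HBC, SD, n = 3, limma adjusted p = 0.000223). The gene of serum response factor itself, Srf, was called higher (log2 change 1.24). So were Elk4 (1.28), Mkl1 (1.03), Mkl2 (1.79), Map2k7 (1.03) and Map3k1 (2.68), all named after their values were seen. Elk1 was not called (0.50). Mapk8, which encodes JNK1, was 2.15-fold lower (149.5 in RBC and 321 ± 7.9 in HBC, SD, n = 3), and fell short of the 2-fold minimum with values as deposited (log2 change -0.98) and with equal sums (-0.996). The p38 kinase gene Mapk11 was at 291 in RBC and 565 ± 17 in HBC (SD, n = 3) and was not called, but passed as lower under quantile normalization (log2 change -1.03) and with library medians set equal (-1.45).

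Of 16 tested bZIP factors outside the set, which can join AP-1 proteins or compete with them, 4 were called higher in RBC, 3 lower and 9 were not called (median log2 change 0.10). Of all genes tested, 34.2% were called higher, 12.8% lower and 53.0% were not called. Nrl, 1 of the 4 higher, was at 3.65 in RBC and 0 in all HBC libraries, so it passed the filter on low values only through RBC. The 3 lower genes were Creb5 (10.4 in RBC and 109 ± 6.4 in HBC), Jdp2, a repressor that pairs with JUN (360 in RBC and 1008 ± 24 in HBC), and Atf4, the factor of the amino acid stress response (3670 in RBC and 9389 ± 77 in HBC, SD, n = 3 each). Of the higher ones, Atf7 (153 in RBC and 53.3 ± 8.4 in HBC, SD, n = 3) was not called without HBC library 1 (log2 change 1.44) or 3 (1.47), nor under quantile normalization (0.92). Mafa (26.4 in RBC, and 1.32, 0 and 2.11 in HBC libraries) was not called without HBC library 1 (log2 change 3.96) or 3 (4.17), nor under quantile normalization (1.60) or with a pseudocount of 0.1 (5.29).

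**Figure D4:**
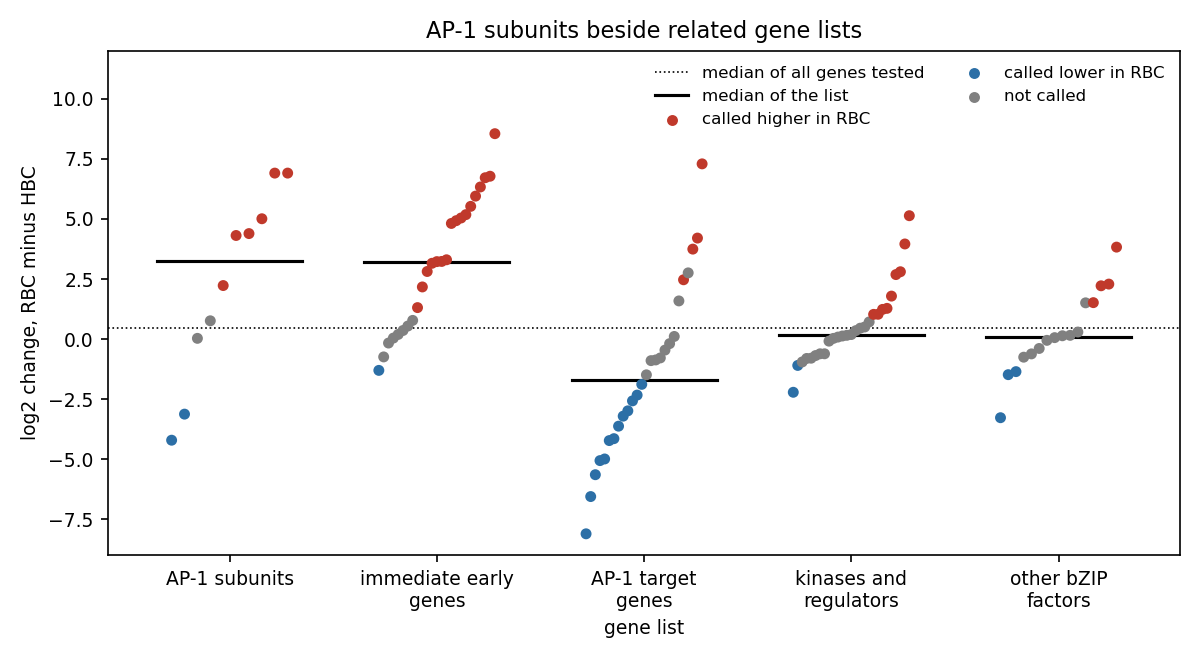
Log2 change, RBC minus HBC, of each tested gene in 5 lists, coloured by limma call, with the list median as a solid bar and the median of all 16440 genes tested (0.45) as a dotted line. The medians of the AP-1 subunits (3.27) and of the immediate early genes (3.22) lie above the dotted line, and that of the AP-1 target genes (-1.69) lies below it. All 5 lists were chosen with results known.

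The genes whose pattern over the 4 libraries was closest to Fos, by Euclidean distance between log2 profiles centred on their own mean, were Fosb (0.119), Abca13 (0.141), Steap4 (0.152) and Gstm1 (0.192). Abca13 was at 259 in RBC and at only 1.18, 1.48 and 1.45 in HBC libraries, so its closeness depends on the pseudocount of 1. Its log2 change was 7.47 with a pseudocount of 0.1 and 4.57 with 10, against 6.91 and 6.85 for Fos. Steap4, a metalloreductase, was at 1088 in RBC and 8.84 ± 0.84 in HBC, and Gstm1, a glutathione transferase, at 25816 in RBC and 226 ± 14 in HBC (SD, n = 3 each). Those closest to Fosl1 were Trib3 (0.0931), Rsad2 (0.113), Gm14137 (0.140) and Spns2 (0.164). Trib3, a pseudokinase of the stress response, was at 79.6 in RBC and 1442 ± 51 in HBC, and Rsad2, an antiviral enzyme, at 30.5 in RBC and 594 ± 26 in HBC (SD, n = 3 each). The search ran over 9403 tested genes with a mean level of at least 100, and with 4 libraries such a pattern is mostly the difference between the groups.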

How the data were processed

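RNA was sequenced from 1 RBC and 3 HBC libraries. The authors deposited 1 table of FPKM values per gene symbol and library. STAR, Cufflinks 2.2.1, Cuffnorm and build mm9 appear, without roles, per the submitters' processing notes, and neither annotation nor strand setting nor filters are stated there. In genes below 4 in all libraries, 12.4% to 26.0% had a ratio between 2 libraries within 2% of 1, against 0% to 1.0% within 2% of the ratio of the column sums. Depth was therefore taken to remain in the values, and each library was divided by its median ratio to the geometric mean over 11134 genes at 10 or more everywhere (factors 1.06 for RBC and 0.843, 1.05 and 1.07 for HBC libraries 1 to 3).

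Genes were tested where the average of the 2 groups, RBC and the HBC mean, was at least 1 (16440 of 23281). Genes low in 1 group, in the lists as elsewhere, could pass this filter through the other group alone. The test was limma 3.58.1 in R 4.3.3 on log2(value + 1) with a trend in eBayes, and two-sided p-values were adjusted by Benjamini-Hochberg. A call needed an adjusted p under 0.05 and 2-fold. Residual degrees of freedom were 2, all from HBC. Log2 changes on this scale understate low genes, and folds are ratios of scaled values. Zeros may be failed estimates. Scaling by these factors was chosen after the values had been seen, and values as deposited were an alternative. The procedure was tested on simulated data in which the RBC library was given the spread of the HBC libraries. That test therefore says nothing on spread within RBC. Members, lists and motifs were chosen with earlier results of these data, and the promoter letters, known. Named list genes were the 3 with the largest and the 3 with the smallest change at a mean level of at least 10, and some of these are not reported here. Alternatives changed scaling, pseudocount, filter, variance trend and HBC libraries.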

Additional observations from a re-analysis of the deposited data

How the results depend on the processing

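Of 119 recomputed changes of single subunits, 111 kept their direction and call. Fosl2 changed sign when library medians were set equal (log2 change -0.47). Subunits called lower in RBC numbered 2, and 1 with a pseudocount of 10, with a minimum level of 5 (where Batf3 was no longer tested) and without HBC library 3, so leaving out 1 HBC library at a time gave 1 to 2. Those called higher numbered 5 to 6. The scalings shifted the median log2 change of all genes by 0.11 with values as deposited, 0.10 with equal sums, -0.50 with the medians set equal and -0.55 under quantile normalization. Over all genes, 5621 were called higher and 2105 lower as reported. Under quantile normalization 3155 were called higher, and 3663 (quantile) and 3870 (medians set equal) were called lower, so 46.3% and 54.9% of calls were higher, against 72.8%. Of the genes of other lists covered by the naming rule, Eng (-0.68), Ier3 (0.19) and Thy1 (-0.57) changed sign under quantile normalization. The cause of these changes was not tested. With 1 RBC library, spread within RBC cannot be given. Depth in reads is unknown, and counting error was not estimated. No paired analysis was possible because no label pairs the RBC library with an HBC library.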
